A study of Mus musculus with 8 samples.

Results

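T138 and T143 are cloned mouse lines: each was started from a single somatic nucleus by nuclear transfer into an egg. Sorted CD4+ Foxp3+ T cells of the T143 line, taken as regulatory T cells (Treg cells), were compared here with those of the T138 line. T143 has 3 libraries and T138 has 2, out of 8 libraries in the series. The other 3 libraries are labelled WT (wild type) and enter the fit as a group of their own, for the estimate of spread. Every library carries the strain label NOD-Foxp3GFP-Rag1-/-, so a NOD background, a Foxp3 reporter and a Rag1 deletion are given for both lines and for WT. Whether the label holds for WT was not checked here. No treatment was applied. CD4+ Foxp3+ T cells were sorted by flow cytometry, and their polyadenylated RNA was sequenced with a stranded kit. Each line thus stands for a single donor nucleus, and neither the age of the mice nor the number of animals behind a library is given. The p-values can therefore measure no more than how these libraries vary, and that variation may be technical. Of the source names, 2 go against the titles (T143 replicate 1, given as from T138, and WT replicate 1, given as from T143), and both libraries were grouped by title, model and description. Xist, the RNA of the inactive X chromosome, was at 19143, 24992 and 24143 in T143 and 2.95 and 0 in T138, so the lines also differ by sex and T143 replicate 1 went with its line. The mean log2 value of 5 sex-linked genes was 9.23 and 8.77 in T138 and 2.84, 3.16 and 2.91 in T143. In WT it was 9.76, 10.49 and 8.75, so WT, replicate 1 included, went with T138 in sex. Of 24453 genes in the deposited table, 15547 reached a value of 1 in 2 or more libraries and were tested. They include 428 members of 18 lists of T cell genes.

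Treg cells restrain other lymphocytes. Their programme is set by the transcription factor Foxp3, they depend on interleukin-2 taken up through a high-affinity receptor, and the signal strength of the T cell receptor shapes their development and state. Treg cells that have responded in tissues carry receptors such as the interleukin-33 receptor and restrain NF-kB and MAP kinase signals with induced feedback proteins. Treg cells that recirculate through lymph nodes carry instead lymph node homing receptors such as Ccr7 and the factors Tcf7 and Lef1. Values below are normalised read counts, in which each library is scaled to the same total, and are comparable between libraries for a gene but not between genes. They are given by library in the order of replicates. Differences are T143 minus T138 on the log2(value + 1) scale with their standard error, and a gene is called where limma gave a Benjamini-Hochberg adjusted p under 0.05 over all genes tested.

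The sorted cells were not equally free of other cells' transcripts. The T138 libraries held 15.8 and 18.4 M recovered reads, and the T143 libraries 7.83, 12.3 and 12.6 M. A list of 18 neutrophil granule genes made up 0.170 and 0.0315% of the signal in T138 and 0.654, 1.12 and 4.04% in T143, against at most 0.00672% in WT. A list of 10 MHC class II genes, which antigen-presenting cells express, made up 0.660 and 0.495% in T138 and 0.0477, 0.187 and 0.131% in T143, against at most 0.0209% in WT. Neutrophil signal was thus higher in every T143 library than in either T138 library, and MHC class II signal was lower. All 18 neutrophil genes were above 0 in every T143 library and 17 (without Fcnb) in both T138 libraries, and all 10 MHC class II genes were above 0 in both lines. Macrophage and monocyte genes (12) took 0.0263 to 0.0394% in T138 and 0.0729 to 0.304% in T143, with Fcgr1 at 0 in a T138 library, and erythroid genes (9) 0.00913 to 0.0162% and 0.0233 to 0.123%, with Epb42 at 0 in a T138 library. The dendritic cell list includes Ccr7, a T cell gene too; its other 9 genes took 0.0464 and 0.0421% in T138 and 0.00281, 0.0111 and 0.00930% in T143, lower in every T143 library. The shares of thymocyte and NK or CD8 T cell genes overlapped between the lines, and B cell genes stood at 0.00710% or less, with Pax5 among those at 0 in libraries of both lines. In bulk RNA, fewer cells of a type and less RNA per cell cannot be told apart. The T cell markers were present throughout: Cd4 was at 12819.7 and 12235 in T138 against 15941, 12858 and 10922 in T143, and Cd3e, a chain of the T cell receptor complex, at 11129.8 and 11899 in T138 against 8733, 6959 and 5213 in T143. Neither was called, with differences of 0.06 ± 0.17 (adjusted p = 0.815) and -0.76 ± 0.25 (adjusted p = 0.0579). Cd3e was however called lower without T143 replicate 1 (log2 difference -0.93, adjusted p = 0.036) and without WT replicate 1 (-0.76, adjusted p = 0.036). The chains Cd3d and Cd3g did not follow Cd3e and were not called. Cd3d was at 3595 and 4002 in T138 against 11288, 6961 and 5243 in T143 (0.97 ± 0.37, adjusted p = 0.0896). Cd3g was at 11081 and 10525 in T138 against 14140, 9617 and 7235 in T143. T cell receptor V and C segments were not analysed here.

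**Figure D1:**
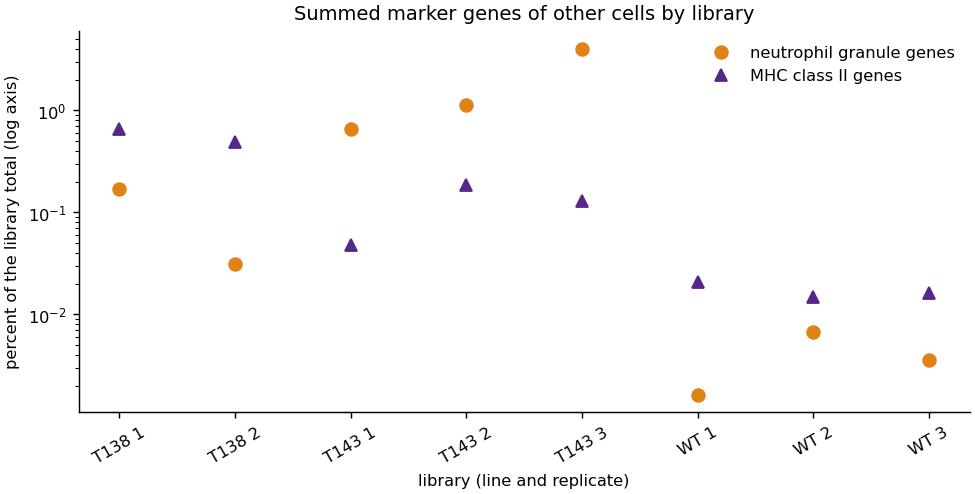
Share of each library's total signal (percent, log axis) taken by 18 neutrophil granule genes (circles) and 10 MHC class II genes (triangles) in the 2 T138, 3 T143 and 3 WT libraries. The neutrophil share reaches 4.04% in T143 replicate 3, and the MHC class II share is highest in T138, at 0.660 and 0.495%.

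In all, 3272 genes (21%) were called between the lines, 1681 (10.8%) higher and 1591 (10.2%) lower in T143. The median difference over all genes tested was 0.15, and differences are to be read against it. Counts of called members in a list below are likewise to be read against 10.8% higher and 10.2% lower. Median centring of the libraries gave 1272 higher and 1713 lower calls. The lines did not overlap in 8043 of the genes tested (51.7%). Most naming rules below also required it, so non-overlap of a named gene adds no separate support. Genes were marked where their values ordered the libraries of both lines as the neutrophil signal did, with a difference of at least 1 (log2) between the extreme libraries of each line. For the MHC class II mark the order in both lines was also needed, and the difference within T143 only. The neutrophil mark fell on 475 genes (3.06%), 88 of them called higher and 4 lower. The MHC class II mark fell on 450 genes (2.89%), 31 called higher and 39 lower. Among called members of the T cell lists, Myb and Ccr1 carried the neutrophil mark, and Fgl2 and Pparg the MHC class II mark. The rule is incomplete, since it marked 13 of the 18 neutrophil genes and 4 of the 10 MHC class II genes. Asked only for the order within T143, a criterion added after the data were seen, it covered 420 (25%) of the genes called higher, 241 (15.1%) of those called lower and 22.5% of all genes tested.

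**Figure D2:**
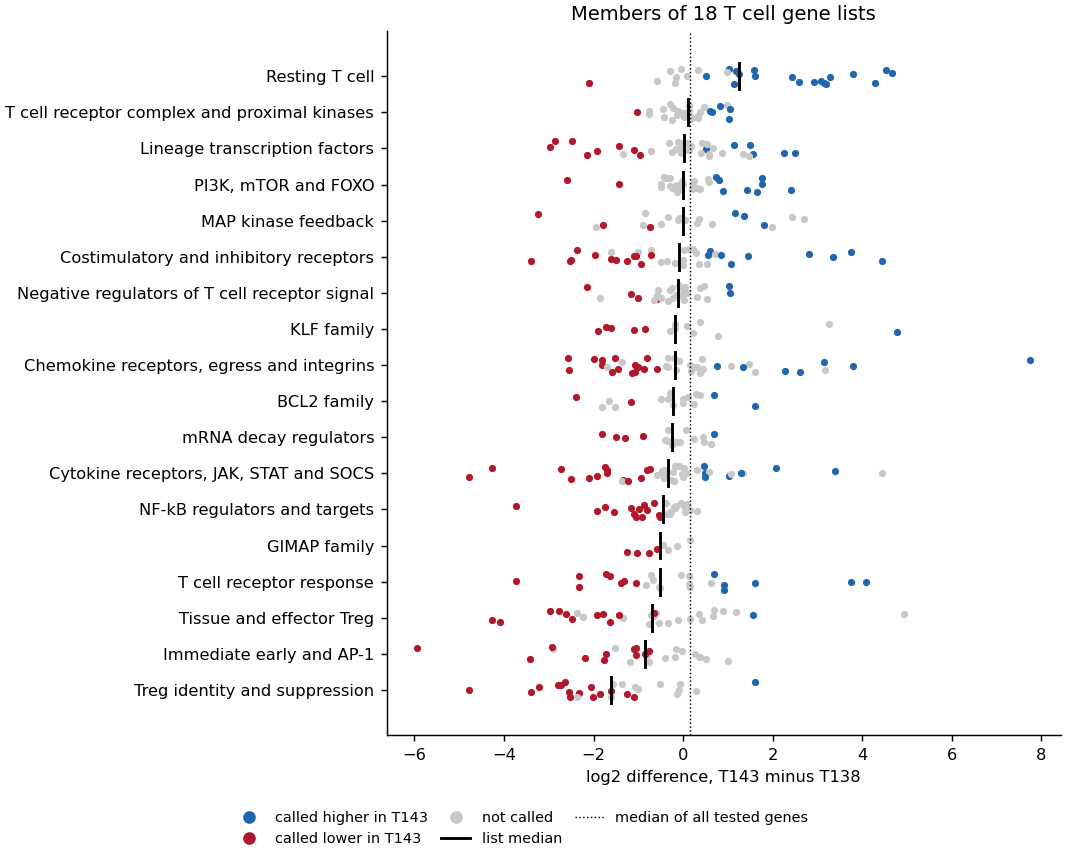
Log2 difference (T143 minus T138) of every tested member of 18 T cell gene lists, ordered by list median (black bars), with called members in blue (higher) and red (lower) and the median of all tested genes, 0.15, as a dotted line. The resting T cell list lies to the right with 18 members called higher, and the Treg identity list to the left with 15 called lower.

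Genes that define Treg cells were lower in the sorted cells of T143. Here too, fewer cells that express these genes and less RNA per cell cannot be told apart. The same holds for the other T cell lists below. Of 27 tested members of a Treg identity and suppression list, 15 were called lower and 1 higher, with a median difference of -1.61 against 0.15 over all genes. Foxp3 (chromosome X, 7579676 to 7595243, GRCm38) was at 41854 and 41161 in T138 against 3920.5, 6299 and 8694 in T143. No T143 library came near the T138 level, and T143 replicate 1 was the lowest. The difference was -2.79 ± 0.27 (adjusted p = 0.000206), with WT at 29773, 36362 and 35359.6. Ikzf2, the Ikaros-family factor Helios, was at 18759.6 and 21541 in T138 against 3073, 4114 and 5014 in T143 and differed by -2.33 ± 0.24 (adjusted p = 0.000242). Its relative Ikzf4 (Eos) was at 1244 and 1088 in T138 against 314, 312 and 245 in T143. Both factors were lower in all 3 T143 libraries than in either T138 library. Ctla4, the inhibitory receptor that strips costimulatory ligands from antigen-presenting cells, was at 10221 and 11591 in T138 against 619, 601 and 2978 in T143. T143 replicate 3 stood well above the other T143 libraries and still below T138, and the difference was -3.39 ± 0.57 (adjusted p = 0.00369). Nt5e, the ectoenzyme CD73 that makes adenosine, was at 3172 and 3415 in T138 against 310.4, 284 and 490.1 in T143 (-3.23 ± 0.23, adjusted p = 2.50e-05). The neuropilin gene Nrp1 was at 4466 and 3474 in T138 against 462, 882 and 616 in T143 (-2.64 ± 0.25, adjusted p = 0.000193). Itgae, the integrin chain CD103, was at 3463 and 2430.0 in T138 against 434, 335 and 848 in T143 (-2.54 ± 0.35, adjusted p = 0.0011). In Nt5e, Nrp1 and Itgae both T138 libraries lay above every T143 library.

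The member called higher was Gpr83, an orphan receptor of Treg cells, at 422 and 249.8 in T138 against 1150.3, 956 and 905 in T143 (1.62 ± 0.23, adjusted p = 0.00117), and WT was higher than both lines at 6906, 5281 and 5693. Members that did not pass included Tgfb1, the suppressor cytokine, at 2961 and 2943 in T138 against 2772, 2961 and 2709 in T143, and Il10 at 33.5 and 128 in T138 against 1.99, 14 and 47 in T143. Without T143 replicate 3, its highest T143 library, Il10 was called lower (adjusted p = 0.045). For 13 of the 15 members called lower, the WT mean was nearer to T138 than to T143 on the log2 scale. Over all genes called lower, WT was nearer to T143 for 31.7%. Fgl2, a secreted suppressor, carried the MHC class II mark. It was at 4613 and 3279 in T138 against 663, 1425 and 1330.5 in T143, differed by -1.85 ± 0.38 (adjusted p = 0.00815), and lost its call without T138 replicate 1 (adjusted p = 0.071). The MHC class II part in Fgl2 was not tested.

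The interleukin-2 axis differed at the high-affinity receptor chain and at feedback genes. Il2ra, the high-affinity chain CD25 (chromosome 2, 11642792 to 11693194), was at 8631 and 7099 in T138 against 909, 1414 and 1307 in T143, and all T143 values lay below all T138 values. It differed by -2.72 ± 0.19 (adjusted p = 2.69e-05). The other receptor chains did not pass, with Il2rb at 8091 and 6462 in T138 against 6219, 5714 and 8645 in T143 and Il2rg at 14429 and 15583 in T138 against 13085, 10467 and 7225 in T143 (lower without T143 replicate 1, adjusted p = 0.025). The transducers were also not called, with Stat5a at 1834 and 1746 in T138 against 1815, 1834 and 1661 in T143 and Stat5b at 6926 and 7415 in T138 against 5907, 5555 and 4977 in T143. DESeq2 on recovered reads called Stat5b lower (adjusted p = 0.0165) and Il2rg lower (0.0442). Socs2, an inhibitor induced by STAT5, was at 1708 and 1383 in T138 against 39.8, 59.8 and 70.5 in T143. Its T143 values were all below 100, and the difference of -4.77 ± 0.30 (adjusted p = 1.83e-05) was the most negative in the list. Cish, another STAT5-induced inhibitor, was at 7655 and 6781 in T138 against 1067, 1339 and 1418 in T143 (-2.51 ± 0.17, adjusted p = 2.41e-05). Socs1 was called lower at 1583 and 1327 in T138 against 748, 546 and 574 in T143 (adjusted p = 0.072 without T138 replicate 1), and Socs3 was not called at 5353 and 3869 in T138 against 3899, 3995 and 6401 in T143.

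Across 46 cytokine receptors, JAK, STAT and SOCS genes, 14 were called lower and 7 higher, with a median of -0.33. Il1rl1, the interleukin-33 receptor ST2 (chromosome 1, 40404864 to 40465418), was at 21077 and 20371 in T138 against 828, 1223 and 1223 in T143. T138 exceeded T143 by more than an order of magnitude and WT was low as well, at 404, 829.6 and 1313. The difference was -4.27 ± 0.40 (adjusted p = 0.000242). Il7r, the interleukin-7 receptor chain that resting T cells usually keep, went the other way from the rest of the resting list. It was at 18654 and 19783 in T138 against 3970.2, 4328 and 5244 in T143, with WT at 2693, 3280.2 and 2771, and differed by -2.10 ± 0.16 (adjusted p = 4.10e-05). Il10ra was at 6551 and 7006 in T138 against 1592, 2146 and 2401 in T143, Ifngr1 at 12924 and 14173 in T138 against 3588, 3565 and 5756 in T143 and Il15ra at 524 and 440.3 in T138 against 91.5, 141 and 157 in T143, and each was called lower. The genes called higher included Il6st, the shared signalling chain gp130, at 1780.5 and 1777 in T138 against 8892, 8486 and 5576 in T143 (2.07 ± 0.21, adjusted p = 0.000247). Tgfbr3, a co-receptor for TGF-beta, was at 129 and 143.1 in T138 against 1964, 1760.0 and 849 in T143 (3.39 ± 0.32, adjusted p = 0.000206), and Tgfbr2 was at 3899.6 and 3067 in T138 against 10932, 9027 and 6176 in T143. The 7 higher calls became 4 without T138 replicate 1, without T143 replicate 1 and under median centring.

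NF-kB is a transcription factor family held in check by IkB proteins and by ubiquitin-editing enzymes that it induces itself. Of 28 NF-kB regulators and targets, 14 were called lower in T143 and 0 higher, with a median of -0.45. The promoters of the list were searched for the NF-kB consensus on both strands in the 300 bases from 250 before to 50 after each RefSeq start (GRCm38.p6). The consensus lay in 13 of 32 windows of the list (40.6%), against 8.46% of all 32817 windows of that length. It lay in 9 of 19 windows of members called lower and in 4 of 13 windows of the others. Windows are not separate genes, and those of Nfkb2 overlap and share a match. Of the 14 members called lower, 11 had a window and 7 of these a match, against 4 of 13 other members with a window. The list was drawn up from known NF-kB genes, so the excess over all windows is no independent evidence, and a match is a description of letters, not of binding. Shown are the 250 bases before the start for the 4 most central feedback genes with a match, chosen for holding one, with the matches in capitals; in Tnip1 the capitals cover 3 overlapping matches. Tnfaip3 is at chr10:19015411-19015660 on the minus strand, Nfkbia at chr12:55492648-55492897 on the minus strand, Nfkbid at chr7:30422156-30422405 on the plus strand and Tnip1 at chr11:54962941-54963190 on the minus strand. Nfkbiz had no match in its window.
Tnfaip3: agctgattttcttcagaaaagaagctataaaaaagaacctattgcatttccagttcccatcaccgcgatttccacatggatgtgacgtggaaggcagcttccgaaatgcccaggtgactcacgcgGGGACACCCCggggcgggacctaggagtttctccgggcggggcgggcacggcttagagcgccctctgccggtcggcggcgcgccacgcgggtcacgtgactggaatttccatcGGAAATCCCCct
Nfkbia: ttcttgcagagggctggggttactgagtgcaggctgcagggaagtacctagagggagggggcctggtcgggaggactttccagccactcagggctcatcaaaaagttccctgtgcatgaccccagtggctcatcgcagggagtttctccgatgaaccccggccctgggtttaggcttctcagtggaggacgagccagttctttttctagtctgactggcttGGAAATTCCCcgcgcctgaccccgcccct
Nfkbid: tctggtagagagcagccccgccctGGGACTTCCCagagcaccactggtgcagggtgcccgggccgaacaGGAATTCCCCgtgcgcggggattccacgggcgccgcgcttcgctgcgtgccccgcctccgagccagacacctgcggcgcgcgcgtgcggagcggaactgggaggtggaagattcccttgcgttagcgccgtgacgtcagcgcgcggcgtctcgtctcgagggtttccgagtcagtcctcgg
Tnip1: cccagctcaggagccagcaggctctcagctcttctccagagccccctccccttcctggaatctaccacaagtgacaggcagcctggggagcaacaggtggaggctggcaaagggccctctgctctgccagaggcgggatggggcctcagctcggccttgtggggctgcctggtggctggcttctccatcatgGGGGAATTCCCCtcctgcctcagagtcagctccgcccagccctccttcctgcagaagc

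Tnfaip3, the ubiquitin-editing enzyme A20 that ends NF-kB signals (chromosome 10, 19000910 to 19015410), was at 23736 and 25603 in T138 against 1777, 1868 and 1948 in T143. The replicates of each line lay close together and far from the other line, with WT at 4745, 3902 and 3675. It differed by -3.73 ± 0.15 (adjusted p = 3.26e-07). Nfkbia, the inhibitor IkB-alpha, was at 11375 and 11433 in T138 against 3477, 2956 and 3832 in T143 (-1.74 ± 0.18, adjusted p = 0.000276). The nuclear IkB proteins followed, Nfkbiz at 5822 and 5889 in T138 against 1296, 1667 and 1733 in T143 (-1.91 ± 0.17, adjusted p = 0.000134) and Nfkbid at 2532 and 2346 in T138 against 804, 867 and 834 in T143 (-1.55 ± 0.16, adjusted p = 0.000247). In all 4 the lines did not overlap, as in 51.7% of all genes tested. Tnip1, a partner of A20, was at 6478 and 6783 in T138 against 3805, 3295 and 2953 in T143 (-0.99 ± 0.15, adjusted p = 0.00157). The survival gene Bcl2l1 (Bcl-xL), a known target, was at 1429 and 1579.9 in T138 against 681, 668 and 675 in T143 (-1.15 ± 0.20, adjusted p = 0.00318).

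The subunits themselves were called only in part. Relb, at 1493 and 1359.8 in T138 against 888, 728 and 853 in T143, and Nfkb2, at 2474 and 2352 in T138 against 1489, 1423 and 1689 in T143, were called lower. Neither call held without T138 replicate 1 (adjusted p = 0.13 and 0.067) or T138 replicate 2 (0.1 and 0.06), nor did that of Relb without T143 replicate 2 (0.092). Rela at 2999 and 2775 in T138 against 2378, 2161 and 2124 in T143, Rel at 470.5 and 581 in T138 against 494, 650.3 and 627 in T143 and Nfkb1 at 6537 and 7094 in T138 against 5899, 5627 and 5460.5 in T143 were not called. Rela and Nfkb1 were still lower in every T143 library than in either T138 library, whereas Rel overlapped. DESeq2 on recovered reads called Rela lower (adjusted p = 0.0498). Map3k14, the kinase NIK that activates Nfkb2, was not called, at 1563 and 1764 in T138 against 1817, 1794 and 1272 in T143. WT was nearer to T138 for 11 of the 14 genes called lower and lay between the lines for 10. Over all 1591 genes called lower, WT was nearer to T138 for 1087 and between the lines for 1014, so these counts are not particular to the list. Without T138 replicate 2 the lower calls were 7, and 9 on leaving out T138 replicate 1 with T143 replicate 3, the libraries of most neutrophil signal in each line.

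Immediate early genes, which are transcribed within minutes of stimulation, were lower in T143 as well: 11 of 25 were called lower and 0 higher, with a median of -0.85. Fosb, an AP-1 subunit, was at 3214 and 3572 in T138 against 33.8, 53.5 and 89.1 in T143. It was the gene with the most negative difference among all genes ranked for naming, at -5.93 ± 0.38 (adjusted p = 1.83e-05), and WT was at 247, 301 and 199.9. Rgs1, a brake on chemokine receptor signals, was at 4306 and 4456 in T138 against 537, 430.1 and 811 in T143 (-2.93 ± 0.27, adjusted p = 0.000171). Csrnp1 was at 2483 and 2280.1 in T138 against 1162, 1114 and 1186 in T143 (-1.04 ± 0.18, adjusted p = 0.00305). Junb, an AP-1 subunit, was at 24863 and 21304 in T138 against 7659.9, 6536 and 6871 in T143. It differed by -1.72 ± 0.34 (adjusted p = 0.00698; 0.052 without T138 replicate 1). Fos, at 4051 and 3956 in T138 against 959, 1418 and 2027 in T143, and Jun, at 4242 and 4059.9 in T138 against 1978, 1649 and 1821 in T143, did not overlap between the lines and were not called, and WT replicate 1 was apart from its group in both, with WT at 2337, 348 and 479.6 for Fos and 6944, 773 and 1072 for Jun. Without that library both were called lower (adjusted p = 0.0073 and 0.0026). WT was nearer to T143 for 10 of the 11 genes called lower, against 31.7% of all genes called lower. Leaving out T138 replicate 1 gave 5 lower calls, leaving out T138 replicate 2 gave 4, and leaving out T138 replicate 1 with T143 replicate 3 gave 4. Of the 11 genes called lower, 8 had a promoter window, with 11 windows between them. The CArG box that the serum response factor binds was in 0 of these 11 windows, and in 1.63% of all windows. The cyclic AMP element TGACGTCA was in 1 of those 11 windows and in 1.79% of all windows.

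Genes that respond to the T cell receptor did not move as a block. Of 24 tested, 6 were called higher and 8 lower, with a median of -0.52. Within the NR4A nuclear receptors, Nr4a1 (Nur77) was at 4803 and 3903 in T138 against 1552, 1770.2 and 1689 in T143 and was called lower (-1.38 ± 0.17, adjusted p = 0.000603), and Nr4a2, at 231 and 116 in T138 against 5.97, 12.7 and 18.6 in T143, was also lower. Nr4a3 was at 14.8 and 30.5 in T138 against 462, 476 and 245 in T143 and was called higher (4.09 ± 0.40, adjusted p = 0.000211). WT was above T143 for Nr4a3, at 834, 810.5 and 1179.5. The EGR factors divided in the same way. Egr1 was at 7845 and 7217 in T138 against 1972, 2592 and 2283 in T143 (-1.73 ± 0.16, adjusted p = 0.000173), whereas Egr3 was at 182 and 253 in T138 against 589, 807 and 600.3 in T143 (1.61 ± 0.24, adjusted p = 0.00158) and Egr2, at 234 and 191 in T138 against 334, 381 and 496 in T143, was also called higher. Both families thus held members called in either direction. The lines did not overlap in any of these 6 genes, as in 51.7% of all genes tested. Myc was at 1008 and 875 in T138 against 1286, 1780.4 and 1498 in T143 and Cd40lg, the CD40 ligand, at 17.7 and 182 in T138 against 937, 839.9 and 616 in T143, and both were called higher. Egr2 lost its call without T138 replicate 1, T138 replicate 2, T143 replicate 2 or T143 replicate 3 (adjusted p = 0.069, 0.18, 0.079 and 0.09), and Myc without T138 replicate 1, T138 replicate 2 or T143 replicate 2 (0.051, 0.14 and 0.074).

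**Figure D3:**
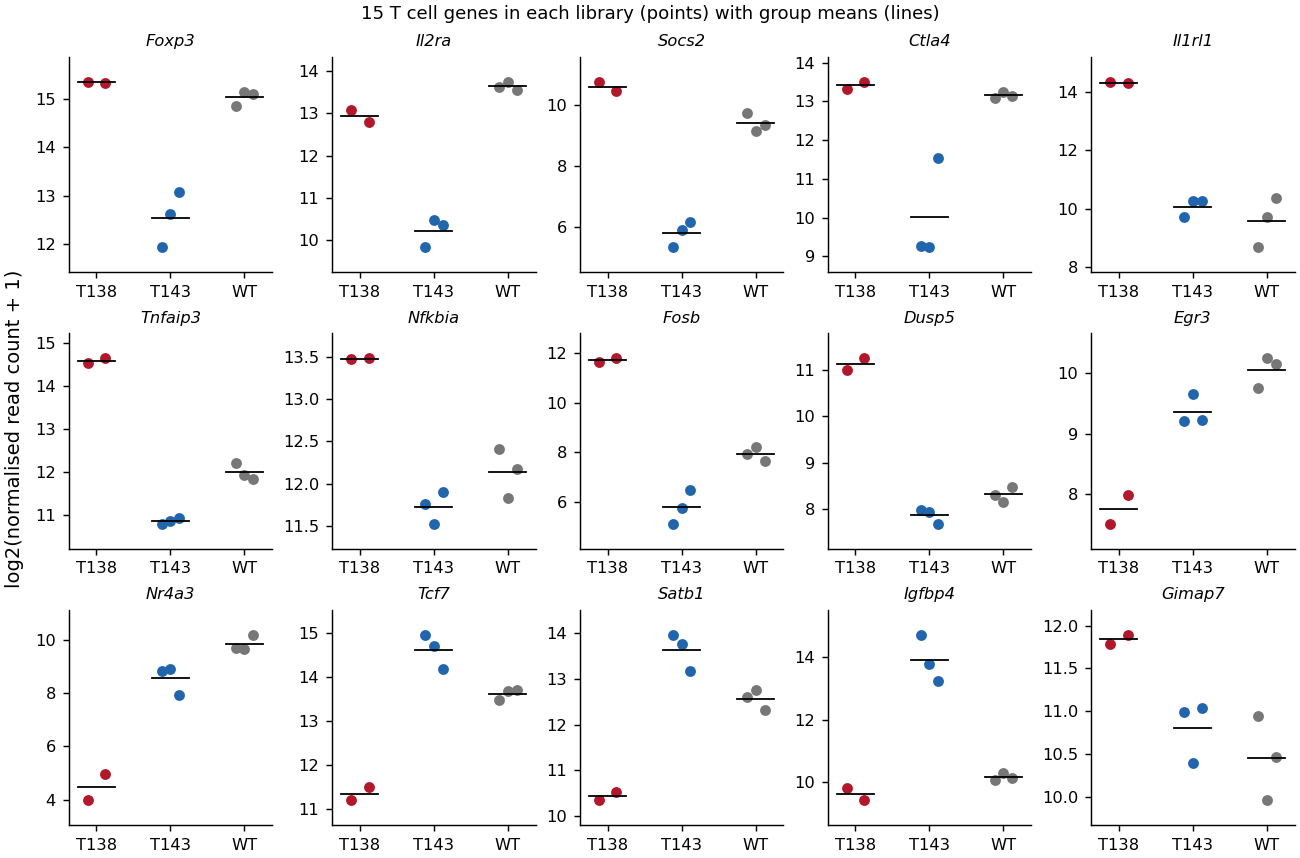
Log2(normalised read count + 1) of 15 T cell genes in each library (points) of T138 (red), T143 (blue) and WT (grey), with group means as lines and a separate vertical scale for each gene. For Foxp3, Il2ra and Ctla4 the WT libraries lie nearer to T138, and for Il1rl1, Fosb and Dusp5 nearer to T143.

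Feedback on the MAP kinase pathway was divided, with 3 of 20 genes called higher and 3 lower, against 10.8% and 10.2% of all genes. Dusp5, a phosphatase that acts on nuclear ERK, was at 2029 and 2426 in T138 against 251, 246 and 205 in T143 (-3.25 ± 0.21, adjusted p = 1.86e-05). Dusp1 was at 4223 and 5238 in T138 against 1249.8, 1232 and 1639.9 in T143 (-1.79 ± 0.32, adjusted p = 0.00372). Dusp6, the phosphatase of cytoplasmic ERK, went the opposite way at 367 and 399.6 in T138 against 1085, 968 and 931 in T143 (1.37 ± 0.19, adjusted p = 0.00117). Spred1, an inhibitor of Ras activation, was also higher at 108 and 107 in T138 against 299, 442 and 403 in T143 (1.798 ± 0.31, adjusted p = 0.00315). The lines did not overlap in any of the 4, as in 51.7% of all genes tested. The 3 lower calls became 5 without T143 replicate 3.

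Proteins that degrade inflammatory messengers were lower in 4 of 18 tested genes and higher in 1, against 10.2% and 10.8% of all genes. Zfp36 (tristetraprolin) was at 28891 and 22408 in T138 against 6756, 7125 and 8022 in T143 (-1.80 ± 0.20, adjusted p = 0.000363). Its relatives Zfp36l1, at 8354 and 8817 in T138 against 3079, 3264 and 2789.7 in T143, and Zfp36l2, at 11720.3 and 14058 in T138 against 6725, 7950.0 and 6206 in T143, differed by -1.50 ± 0.22 (adjusted p = 0.00158) and -0.89 ± 0.15 (adjusted p = 0.00279). The nuclease gene Zc3h12a (Regnase-1) was at 1471 and 1634 in T138 against 611, 562 and 734 in T143 (-1.29 ± 0.17, adjusted p = 0.000776). All 3 ZFP36 genes and Zc3h12a were lower in every T143 library. The roquin genes Rc3h1, at 2422 and 2361 in T138 against 3532, 3386 and 2871 in T143, and Rc3h2, at 2127 and 2794 in T138 against 1785, 2095 and 1962 in T143, were not called, except Rc3h1, higher without WT replicate 2 (adjusted p = 0.042).

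The T cell receptor machinery differed little as a group. Of 27 complex subunits and proximal kinases, 5 were called higher and 1 lower, a share close to the 21% called over all genes, with a median of 0.12. The kinases Lck, at 12403 and 13248 in T138 against 17190.4, 13813 and 11357 in T143, and Zap70, at 2842 and 2929.6 in T138 against 4404, 3260.4 and 3312 in T143, and the adaptor Lat, at 6927 and 6965 in T138 against 7919, 6350.3 and 5022 in T143, were not called. The subunit Cd247 (CD3 zeta) was at 5146 and 4754 in T138 against 11956, 7909 and 7261 in T143 (0.83 ± 0.23, adjusted p = 0.0268), a call lost on leaving out any of T138 replicate 1, T138 replicate 2, T143 replicate 1 or WT replicate 3 (adjusted p = 0.096, 0.16, 0.059 and 0.051). Malt1, the protease of the complex that links the receptor to NF-kB, was called lower at 7459 and 6516 in T138 against 3649.8, 3552 and 3085 in T143 (-1.03 ± 0.17, adjusted p = 0.00226). The 5 higher calls became 0 on leaving out T138 replicate 1, T138 replicate 2 or T143 replicate 1 and under median centring, and 1 when T138 replicate 1 and T143 replicate 3 were both left out. Within T143, 19 of the 27 genes fell in the order in which the neutrophil signal rose, against 22.9% of all genes.

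Among 28 negative regulators of that signal, 4 were called lower and 2 higher, again a share close to that over all genes, with a median of -0.12. Ubash3b (Sts-1), a phosphatase that acts on Zap70, was at 3866 and 3578 in T138 against 868, 837 and 829 in T143. Its T143 values lay within a narrow band, and it differed by -2.14 ± 0.18 (adjusted p = 7.99e-05), with WT at 686, 916 and 992. Sla (SLAP), an adaptor that lowers receptor levels, was at 13326 and 13353 in T138 against 5035, 5160.4 and 8171 in T143 (-1.16 ± 0.21, adjusted p = 0.00376). Dok2 was at 3103 and 3163 in T138 against 1775, 1459.7 and 1488 in T143 (-0.998 ± 0.16, adjusted p = 0.00245). Ptpn6, the phosphatase SHP-1, was higher at 3663 and 3062 in T138 against 7328, 6465 and 6852 in T143 (1.04 ± 0.17, adjusted p = 0.00235), in a gene that myeloid cells also express. Cd5, often read as a gauge of receptor signal strength, overlapped between the lines at 8116 and 8696 in T138 against 12233, 8812 and 5297 in T143 and was not called. Its 3 T143 values fell as the neutrophil signal rose.

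Genes of resting T cells were higher in T143. Of 27 tested, 18 were called higher and 1 (Il7r, above) lower, with a median of 1.26. Tcf7, the factor TCF-1 (chromosome 11, 52246527 to 52283383), was at 2338 and 2875 in T138 against 31927, 26669 and 18649 in T143. The lowest T143 library was several times above T138, and the difference was 3.28 ± 0.21 (adjusted p = 1.86e-05), with WT between at 11398, 13167 and 13316. Satb1, a chromatin organizer, was at 1301 and 1472 in T138 against 16036, 13833 and 9229 in T143 (3.20 ± 0.22, adjusted p = 2.50e-05). Treml2 was at 458 and 535 in T138 against 3150.3, 3067 and 2812 in T143 (2.60 ± 0.16, adjusted p = 1.16e-05), and Bach2, a repressor of effector genes, was at 220.5 and 404 in T138 against 3218, 3166 and 1572 in T143. The lines stayed apart in each of these. Ccr7, the chemokine receptor for lymph node entry, was at 555 and 667 in T138 against 13696, 9909 and 4451 in T143 (3.79 ± 0.42, adjusted p = 0.000554). Migrating dendritic cells express it too, and their part was not tested.

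In some resting genes every T143 library was also above every WT library. Igfbp4, a secreted binding protein of insulin-like growth factors found in naive CD4 cells, was at 914 and 693 in T138 against 26842, 14163 and 9688 in T143, with WT at 1092, 1255 and 1120.2. It differed by 4.28 ± 0.34 (adjusted p = 7.22e-05). Dapl1 was at 40.4 and 113 in T138 against 3473, 2037 and 741 in T143, with WT at 11.7, 24.5 and 16, and differed by 4.66 ± 0.65 (adjusted p = 0.00119). Nsg2 was at 129 and 94 in T138 against 4273, 2348 and 1708 in T143, with WT at 771, 585 and 676 (4.54 ± 0.33, adjusted p = 3.15e-05). In all 3 genes T143 replicate 3 was the lowest of its line and still far above T138. WT was nearer to T143 for 13 of the 18 genes called higher, against 45.7% over all genes called higher. Not every resting gene moved: Klf2, at 9972 and 9093 in T138 against 9308, 8169 and 6198 in T143, S1pr1, the receptor for exit from lymph nodes, at 15055 and 14965 in T138 against 15688, 15297 and 9998 in T143, and Foxo1, their known upstream factor, at 6615 and 6260.4 in T138 against 6444, 7643 and 5012 in T143, were not called. Within T143, 23 of the 27 members fell as the neutrophil signal rose, against 22.9% of all genes, and 17 of the 18 genes called higher did. The count was 17 without both T138 replicate 1 and T143 replicate 3.

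Genes around PI3K, mTOR and FOXO differed in part, with 8 of 31 called higher and 2 lower and a median of 0.00. Over all genes 10.8% were called higher and 10.2% lower. Pik3ip1, an inhibitor of PI3K in resting T cells, was at 358 and 289 in T138 against 2187, 1773 and 1282 in T143 (2.40 ± 0.23, adjusted p = 0.000205). Sesn3, a FOXO-regulated stress gene, was called higher, at 642 and 716 in T138 against 2697, 1760.0 and 1312 in T143. Ddit4 (REDD1), an mTORC1 inhibitor, was at 1003 and 1078 in T138 against 3037, 3474 and 4266 in T143 (1.77 ± 0.26, adjusted p = 0.00141), and the amino acid transporter Slc7a5 was at 326 and 364 in T138 against 872, 1148 and 1272 in T143 (1.65 ± 0.20, adjusted p = 0.000496). Ddit4 and Slc7a5 rose with the neutrophil signal within T143, whereas Pik3ip1 and Sesn3 fell. The PIM kinases, induced by cytokines, diverged. Pim1 was at 23369 and 24043 in T138 against 3389, 3546 and 4942 in T143 (-2.60 ± 0.19, adjusted p = 3.04e-05), and Pim2 at 449.8 and 357 in T138 against 1885, 1376 and 991 in T143 (1.77 ± 0.26, adjusted p = 0.00153). No library of either line overlapped the other line in these 2 genes.

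Tissue and effector Treg genes were lower in T143 in 11 of 30 tested and higher in 1, with a median of -0.69. Gata3 was at 7170.2 and 7643 in T138 against 1216, 1308 and 1453 in T143, with a difference of -2.48 ± 0.15 (adjusted p = 1.09e-05). Rora was at 6982 and 7779 in T138 against 734, 895 and 1269.8 in T143 (-2.97 ± 0.30, adjusted p = 0.000242). Klrg1, a receptor of differentiated Treg cells, was at 8456 and 8555 in T138 against 977, 1065 and 1895 in T143 (-2.76 ± 0.30, adjusted p = 0.00031). As with Il1rl1, WT also lay below T138 in each: it was at 2187, 2330.2 and 2634 for Gata3, 1273, 2657 and 1648 for Rora and 313, 406 and 566 for Klrg1. Pparg, the factor of fat-tissue Treg cells, was at 1091 and 947 in T138 against 13.9, 153 and 90.3 in T143 and carried the MHC class II mark. It differed by -4.10 ± 0.90 (adjusted p = 0.0104; 0.066 without T138 replicate 1 and 0.07 without T138 replicate 2), and the part of MHC class II-bearing cells was not tested.

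Id2, a repressor of E proteins, was the member called higher, at 1198 and 946 in T138 against 3455, 2910.5 and 3129 in T143 (1.57 ± 0.16, adjusted p = 0.000247). Several effector genes came near or above the T138 values in T143 replicate 3 alone and were not called. Maf was at 3017 and 3862 in T138 against 804, 1033 and 2972 in T143, Gzmb at 664 and 689 in T138 against 324, 323 and 2322 in T143 and S100a6 at 5923 and 4849.8 in T138 against 1737, 2316 and 9761 in T143. Without that library Maf (adjusted p = 0.00078) and S100a6 (0.00595) were called lower. Maf was also called lower under median centring (adjusted p = 0.049), with the replicate block (0.00475) and with the neutrophil index as covariate (0.0383). Within T143, 16 of the 30 genes rose with the neutrophil signal, against 24.4% of all genes, and neutrophils and macrophages also express S100a6, Anxa2 and Lgals3. Leaving out T138 replicate 1 gave 5 lower calls and leaving out T138 replicate 2 gave 6.

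Of 37 lineage transcription factors, 8 were called lower and 6 higher, against 10.2% and 10.8% of all genes, with a median of 0.01. Ikzf1 (Ikaros) was at 6497 and 5549 in T138 against 18454, 17771 and 14461 in T143 (1.48 ± 0.15, adjusted p = 0.000247). Its call was the reverse of its relatives Ikzf2 and Ikzf4. Zbtb32 was lower at 315 and 241 in T138 against 25.9, 30.5 and 64.4 in T143 (-2.86 ± 0.47, adjusted p = 0.00242). Myb was higher at 216 and 104 in T138 against 482, 906 and 1411 in T143 (2.497 ± 0.41, adjusted p = 0.00245), and carried the neutrophil mark; myeloid progenitors express it as well, and their part was not tested. Tbx21 (T-bet), at 154 and 146 in T138 against 314, 230.3 and 188 in T143, and Bcl6, at 499 and 375 in T138 against 533, 738 and 1285 in T143, were not called, though Bcl6 was higher without T143 replicate 1 (adjusted p = 0.022). Lower calls numbered 4 without T138 replicate 1 and without T138 replicate 2, and 5 without T143 replicate 1, T143 replicate 2 or WT replicate 3.

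In the KLF family, 5 of 14 tested genes were called lower and 1 higher, against 10.2% and 10.8% of all genes. Klf11 was at 918 and 715 in T138 against 267, 312 and 223 in T143 (-1.61 ± 0.25, adjusted p = 0.00192), and Klf6 at 7752 and 9817 in T138 against 4486, 4105 and 3746 in T143 (-1.09 ± 0.19, adjusted p = 0.00328; 0.052 without T138 replicate 2). WT was nearer to T143 for all 5 genes called lower, against 31.7% of all genes called lower. Klf5, called higher, was listed at 0 and 0 in T138 against 3.98, 35.6 and 113 in T143, and its values rose with the neutrophil signal. Leaving out T138 replicate 1 gave 3 lower calls, leaving out T138 replicate 2 gave 2, and leaving out T138 replicate 1 with T143 replicate 3 gave 2. Klf5 lost its call on leaving out any of T138 replicate 1, T138 replicate 2, T143 replicate 2 or T143 replicate 3 (adjusted p = 0.083, 0.1, 0.068 and 0.057).

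Costimulatory and inhibitory receptors split, with 12 of 36 called lower and 9 higher and a median of -0.09. Tnfrsf4 (OX40) was at 7016 and 7638 in T138 against 1057, 1035 and 1859 in T143 (-2.53 ± 0.30, adjusted p = 0.000487). Tnfrsf18 (GITR), at 5764 and 6357 in T138 against 2398, 1742 and 1845 in T143, was also called lower (adjusted p = 0.065 without T138 replicate 2). Tnfrsf25 (DR3) was at 4262 and 4183 in T138 against 1793, 1525 and 1234 in T143 (-1.49 ± 0.17, adjusted p = 0.000427). Tnfrsf9 (4-1BB), at 726 and 619 in T138 against 736, 547 and 964 in T143, was not called, so the TNF receptors of the list did not all follow. Cd200r1, an inhibitory receptor, was at 2699 and 2365 in T138 against 424, 464 and 453 in T143, with WT at 406, 460.1 and 398 (-2.50 ± 0.17, adjusted p = 2.41e-05). Among genes called higher, Tnfsf8 (CD30 ligand) was at 80.7 and 231 in T138 against 1122, 616 and 1337 in T143 (2.82 ± 0.44, adjusted p = 0.00194), and Btla at 1344 and 933 in T138 against 2464, 2371 and 2279.7 in T143. Tnfrsf1a, a TNF receptor found on many cell types, was at 592 and 532 in T138 against 1192, 1478 and 2088 in T143 and rose with the neutrophil signal within T143 (1.46 ± 0.23, adjusted p = 0.00215). Pdcd1 (PD-1), at 821 and 393 in T138 against 469.7, 262 and 1495 in T143, Icos, at 3343 and 3918 in T138 against 1339, 988 and 4385 in T143, and Tigit, at 1383 and 1399.6 in T138 against 306, 229 and 1359 in T143, were each highest in T143 replicate 3 within the line and were not called. Without that library Icos and Tigit were called lower (adjusted p = 0.004 and 0.0014). Lower calls numbered 7 without T138 replicate 1 and 5 without T138 replicate 2.

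Trafficking genes differed in both directions. Of 42, 15 were called lower and 7 higher, with a median of -0.18. Beside Ccr7, Gpr18 was higher at 304 and 226 in T138 against 1638, 1302 and 981 in T143 (2.28 ± 0.27, adjusted p = 0.000454). Integrin chains were lower: Itgb1 was at 15430.0 and 19222 in T138 against 6299, 5597 and 5281 in T143 (-1.59 ± 0.19, adjusted p = 0.00057), Itga4 at 31242 and 31052 in T138 against 8203, 11232 and 13784 in T143 and Itgb7, its partner for gut homing, at 27728 and 28405 in T138 against 17276, 13084 and 10260.1 in T143. The chains of LFA-1 were not called, with Itgal at 9202 and 9977 in T138 against 12842, 12351 and 13858 in T143 and Itgb2 at 10678 and 10256 in T138 against 14366, 12491 and 15649 in T143 (higher without WT replicate 2, adjusted p = 0.046). DESeq2 on recovered reads called both chains higher (adjusted p = 0.0234 for Itgal and 0.022 for Itgb2). Chemokine receptors called lower included Ccr4, at 2181 and 1989 in T138 against 217, 211 and 936 in T143, and Cxcr4, at 5127 and 8303 in T138 against 2287, 2116 and 2781 in T143. Ccr4 lost its call without either T138 library (adjusted p = 0.058 and 0.062), and Itgb7 without T138 replicate 2 (0.056). The adenosine receptor Adora2a was lower at 1499 and 1701 in T138 against 758, 722 and 814 in T143, as was Nt5e, the enzyme that makes its ligand. Ccr1, a myeloid chemokine receptor called higher, was at 8.86 and 0 in T138 against 241, 592 and 2144 in T143, carried the neutrophil mark and lost its call without T138 replicate 2 (adjusted p = 0.055). Lower calls numbered 9 without T138 replicate 1 and 8 without T138 replicate 2.

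The GIMAP GTPases, which support lymphocyte survival, were lower in 4 of 8 tested, against 10.2% of all genes, with a median of -0.51. Gimap3 was at 20038 and 21254 in T138 against 9632, 8398 and 7869 in T143 (-1.26 ± 0.14, adjusted p = 0.00031). Gimap7 was at 3519.7 and 3804 in T138 against 2046, 1352 and 2100.3 in T143, and Gimap4, at 9861 and 10199 in T138 against 14967, 10792 and 8480.4 in T143, was not called and overlapped between the lines. Gimap7 lost its call without T138 replicate 1, T138 replicate 2 or T143 replicate 2 (adjusted p = 0.088, 0.14 and 0.079). Of the 4 calls, 2 were made without T138 replicate 1 or without T143 replicate 2, 1 without T138 replicate 2, and 1 with T138 replicate 1 and T143 replicate 3 both left out. Within T143, 6 of the 8 genes fell as the neutrophil signal rose.

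In the BCL2 family, 2 of 17 tested genes were called higher and 2 lower, a share close to that over all genes. Bcl2, the survival protein of resting cells, was at 1511 and 1453 in T138 against 5433, 4252 and 3892 in T143 (1.596 ± 0.17, adjusted p = 0.000315). Bcl2l1 (Bcl-xL), given above, was lower, so the 2 survival genes differed in opposite directions between the lines. The death gene Pmaip1 (Noxa) was at 3100.4 and 3322 in T138 against 376, 603 and 1007 in T143 (-2.39 ± 0.35, adjusted p = 0.00153). Bcl2l11 (Bim) was at 1187 and 956 in T138 against 1797, 1843 and 1552 in T143 (0.70 ± 0.17, adjusted p = 0.0166; 0.14 without T138 replicate 2 and 0.064 without T143 replicate 2). Mcl1, at 14019 and 14478 in T138 against 15992, 13803 and 13282 in T143, was not called.

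Among all genes without a mark, the 10 most raised and 10 most lowered were taken by size from called genes with a mean at or above the median of tested genes and lines that did not overlap, excluding predicted genes, small RNAs, receptor segments, sex-linked genes and marker lists. Those called higher fell into separate patterns. Dapl1, Nsg2, Igfbp4, Vipr1 and Pdlim4 fell within T143 as the neutrophil signal rose. Vipr1, a receptor for vasoactive intestinal peptide, was at 112 and 158 in T138 against 3839, 3132 and 1256 in T143 (4.20 ± 0.50, adjusted p = 0.000629), and Pdlim4 was at 29.5 and 72.8 in T138 against 1361, 1153 and 563 in T143 (4.34 ± 0.74, adjusted p = 0.00283). Cd93, Fn1 and Cd24a rose with it. Cd93, a receptor of myeloid and endothelial cells, was at 0 and 0 in T138 against 169, 752 and 1572 in T143. Fn1 (fibronectin) was at 80.7 and 189.7 in T138 against 685, 3744 and 5836 in T143 and Cd24a at 179 and 245 in T138 against 1429, 5038 and 5775 in T143. Fn1 lost its call without T138 replicate 1 (adjusted p = 0.08). Mrc1, the macrophage mannose receptor, was at 4.92 and 134 in T138 against 201.0, 1765 and 1502 in T143 and, in T143 but not in T138, followed the MHC class II order; it lost its call without T138 replicate 1, T143 replicate 2, T143 replicate 3 or WT replicate 3 (adjusted p = 0.23, 0.097, 0.078 and 0.053). The part of myeloid cells in these 4 genes was not tested.

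The lowered genes were mostly T cell genes given above: Fosb, Socs2, Il1rl1, Tnfaip3, Ctla4, Dusp5 and Nt5e. The remaining 3 were Il9r, Rgs9 and Adam23. Il9r, the interleukin-9 receptor chain, was at 3537 and 3546 in T138 against 131, 201.1 and 488 in T143 (-3.91 ± 0.45, adjusted p = 0.000434). Rgs9 was at 226 and 196 in T138 against 17.9, 16.5 and 17.3 in T143, with WT above both lines at 639.9, 833 and 583 (-3.54 ± 0.35, adjusted p = 0.000241). Adam23 was at 1426 and 1566 in T138 against 45.8, 235 and 217 in T143 and followed the MHC class II order in T143 but not in T138 (-3.48 ± 0.64, adjusted p = 0.00434).

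**Figure D4:**
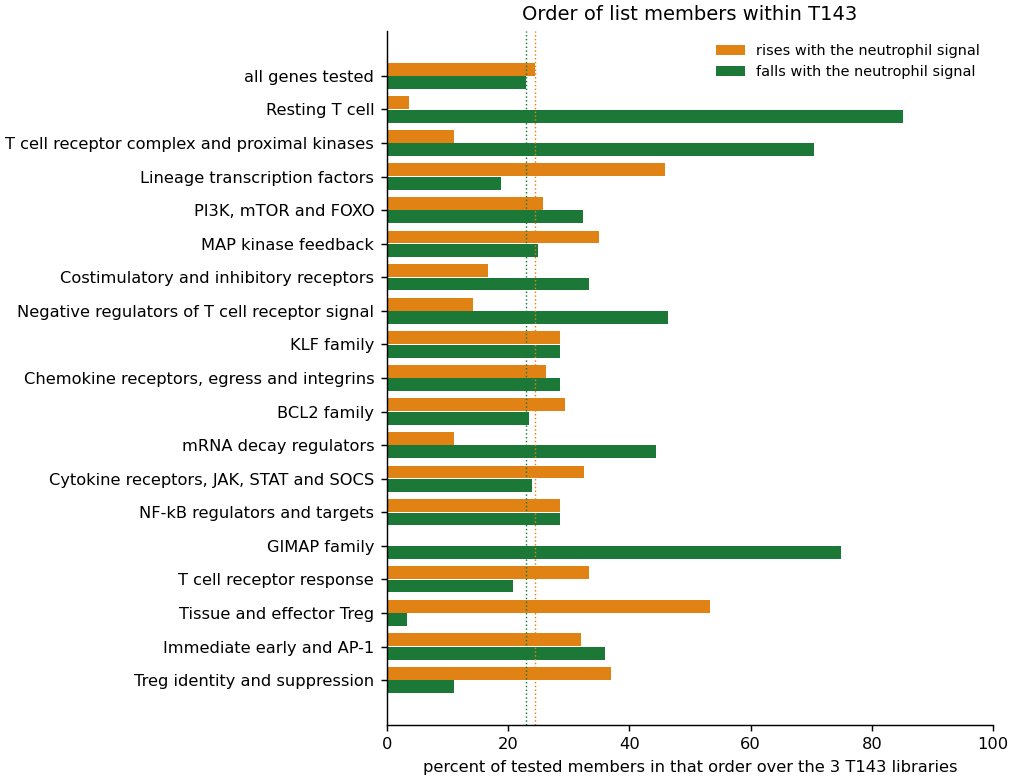
Percent of tested members of each list whose values over the 3 T143 libraries rise (orange) or fall (green) as the neutrophil signal rises, with the shares of all tested genes, 24.4 and 22.9%, as dotted lines. The resting list stands at 85.2% falling and the tissue and effector list at 53.3% rising. Recovered reads and the macrophage and monocyte share rise over the 3 T143 libraries in the same order.

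The T143 libraries thus differed among themselves along with their neutrophil signal. Recovered reads (7.83, 12.3 and 12.6 M) and the macrophage and monocyte share (0.0729, 0.216 and 0.304%) rose in the same order. An order that follows one of these follows all, and they cannot be told apart. The order of a list was read after the data were seen, as a description with no test. Lineage transcription factors rose with the neutrophil signal in 17 of 37 genes. The Treg identity list rose in 10 of 27 and fell in 3, and Foxp3 rose. In the receptor complex list, members not called also fell, Lck and Lat among them. The neutrophil index is high in T143 and low in T138, and the MHC class II index the reverse.

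The calls between the lines rest on few libraries and on the absence of a covariate. Without T138 replicate 2, 1347 genes were called, without T138 replicate 1, 2046, and without T143 replicate 2, 2004. With the neutrophil index as a covariate 796 were called, and with the MHC class II index 42, with 2406 at an unadjusted p under 0.05. The MHC class II index did not overlap between the lines, with T138 at 11.75 and 11.39 against T143 at 8.28, 9.97 and 9.72 (mean log2). Neither did the neutrophil index, at 8.99 and 6.96 in T138 against 10.75, 11.65 and 13.43 in T143. The part of either index and that of the line therefore cannot be told apart in these fits. Xist, which marks the sex difference, lost its call with the neutrophil index (log2 difference 11.4, adjusted p = 0.133) and with the MHC class II index (15.4, adjusted p = 0.103). Of 164 genes followed through the alternatives, 124 were called, and 49 of these lost their call with the neutrophil index and 115 with the MHC class II index. With the neutrophil index the losses took in Csrnp1, Junb, Dusp1, Spred1, Tnip1, Relb, Nfkb2, Malt1, Bcl2l1 and Bcl2l11, with Egr2, Egr3, Myc, Socs1, Dok2, Ptpn6, Zfp36l2, Klf5, Klf6, Klf11, Myb, Gpr83, Ddit4, Slc7a5, Cxcr4, Itgb7, Adora2a, Ccr1, Gimap7, Btla, Tnfsf8, Tnfrsf18, Tnfrsf1a, Tnfrsf25, Cd24a, Cd93, Fn1 and Mrc1 (adjusted p from 0.053 for Ddit4 to 0.84 for Egr2; Junb 0.36, Dusp1 0.23, Bcl2l1 0.22), while Foxp3, Il2ra, Ctla4, Tnfaip3, Fosb and Tcf7 were still called. With the MHC class II index the 9 still called were Dusp5, Fosb, Gata3, Il2ra, Myb, Socs2, Tcf7, Tnfaip3 and Treml2, and Foxp3 (adjusted p = 0.13) and Ctla4 (0.37) were not. None of the 124 called genes changed sign under any alternative run. Of the 40 not called, 27 did, Cd4, Fos, Jun, Il10, Bcl6 and S100a6 among them. Many of the 124 were named by rules that asked for a call and lines without overlap. Leaving out libraries cannot reverse the sign of such a gene. The contrast is therefore partly set by how the genes were chosen and is no measure of robustness.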

How the data were processed

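The authors deposited 1 table for the 8 libraries, a signal: gene read counts divided by a factor per library, as far as the values show. Every value (100%) was a whole multiple of its library's step, to within 0.01 units; these recovered counts from the deposited signal were used only in alternatives. Named in the submitters' processing notes are mm10, STAR 2.5.2b, HOMER 4.8, CASAVA 1.8.2 and edgeR, with no role or order; no source used here says how strand and multi-mapped reads were counted, so near-identical or overlapping genes are uncertain. Genes with a value of at least 1 in 2 libraries were tested with limma 3.58.1 (R 4.3.3; trend and robust moderation) on log2(value + 1), which understates changes of low genes. All 8 libraries were fitted with group means, because T138 has 2 libraries, and p-values were two-sided and Benjamini-Hochberg adjusted. Tested on simulated data for T143 against T138 (15188 genes, 100 changed 4-fold and 100 changed 2-fold), the procedure recovered 78% and 33% of them, and 9.02% of its calls were false. The changed genes were drawn without those of low expected counts, and no neutrophil or MHC class II signal was simulated. These shares may therefore not hold for low genes or for the calls made here. Positions and promoters are RefSeq's for GRCm38. A count of 0 allows up to 3 reads, a value between 2.07 and 5.97 by library, for counting error only. Alternatives covered scaling, pseudocounts (0.5 and 8), filters (none and 30), edgeR 4.0.16, DESeq2 1.42.0, limma-voom, covariates, a replicate block and libraries left out. The members and lists were chosen with earlier results of these data known. Genes were named by rule: 3 fixed genes, up to 5 called, non-overlapping members per list with the smallest p and up to 2 in the direction fewer members took, the 10 largest changes each way among called, unmarked genes with a mean at or above the median and no overlap (without predicted genes, small RNAs, receptor segments, sex-linked genes and marker genes), and marked list members; other members are given by their values. Orders within T143 and the comparison of WT with each line were added after the data were seen. Some genes that the rule names are not reported here.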

Additional observations from a re-analysis of the deposited data

How the results depend on the processing

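Of 3272 calls, counts under scaling, pseudocounts, filters, the 5-library fit, edgeR, DESeq2 and limma-voom ran from 2718 to 3923. Among genes followed but not called, DESeq2 called Bcl6, Itgal and Itgb2 higher and Cd3e, Il2rg, Rela and Stat5b lower. Leaving out a single library gave 1347 to 3668 calls, 660 to 1958 higher and 687 to 1710 lower, lowest without T138 replicate 2 in all 3 counts. Leaving out both T138 replicate 1 and T143 replicate 3 gave 1676, 842 higher and 834 lower. The neutrophil index as covariate gave 796, 309 higher and 487 lower. The MHC class II index gave 42, 28 higher and 14 lower. Why these fits gave fewer calls was not tested, apart from the smaller number of libraries. The replicate block, fitted because the labels number the replicates, gave 3109 calls. In that fit 2 mRNA decay regulators were called higher in place of 1. Deviations of same-numbered T138 and T143 libraries correlated at -0.062 and 0.004. With 2 T138 libraries the deviations within T138 mirror each other, so these values cannot exclude handling shared between same-numbered libraries.

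List counts that moved by over 1.5 times were as follows. Leaving out a single library, members called lower ran from 5 to 15 (tissue and effector), 4 to 13 (immediate early), 7 to 14 (NF-kB), 5 to 10 (receptor response), 5 to 14 (costimulatory and inhibitory), 8 to 15 (trafficking), 4 to 9 (lineage factors), 2 to 5 (KLF), 1 to 4 (GIMAP), 2 to 5 (MAP kinase), 1 to 3 (receptor complex) and 1 to 2 (resting). Members called higher ran from 0 to 7 (receptor complex), 4 to 7 (cytokine receptors), 1 to 3 (tissue and effector; negative regulators), 0 to 3 (mRNA decay), 0 to 2 (KLF) and 1 to 2 (BCL2). With the MHC class II index as covariate, lower calls were 2 in Treg identity and cytokine receptors, 1 in tissue and effector, immediate early, MAP kinase, NF-kB and lineage factors, and 0 in the others. Higher calls in that fit were 2 in the resting list, 1 in lineage factors and 0 elsewhere. With the neutrophil index, lower calls were 4 (NF-kB), 3 (immediate early), 2 (negative regulators), 6 (costimulatory), 8 (trafficking), 1 (GIMAP, BCL2) and 0 (KLF, receptor complex). Higher calls there were 3 (receptor complex, costimulatory, trafficking), 4 (cytokine receptors, PI3K), 2 (receptor response, lineage factors), 1 (MAP kinase, BCL2) and 0 (Treg identity, negative regulators, mRNA decay, KLF). Without both T138 replicate 1 and T143 replicate 3, lower calls were 4 (immediate early), 9 (NF-kB), 2 (KLF), 1 (GIMAP) and 0 (receptor complex), and higher calls 4 (cytokine receptors), 2 (tissue and effector), 1 (receptor complex, negative regulators) and 0 (mRNA decay, KLF). Without both T143 replicate 1 and WT replicate 1, higher calls were 1 (receptor complex), 4 (cytokine receptors) and 2 (KLF), and lower calls 2 (receptor complex) and 5 (lineage factors). Median centring gave higher calls of 0 (receptor complex, mRNA decay), 4 (cytokine receptors) and 1 (BCL2). Elsewhere, higher calls were 2 for tissue and effector under quantile normalization, 0 for KLF under pseudocount 8, the minimum of 30 and the 5-library fit, and 2 for the receptor complex and mRNA decay in the 5-library fit and for mRNA decay under DESeq2. Lower calls were 2 for the receptor complex under pseudocount 8 and the minimum of 30, 3 under DESeq2, 2 for the resting list under DESeq2 and limma-voom, and 5 for lineage factors in the 5-library fit. The cause of these moves was not tested.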
